A study of Mus musculus with 116 samples.

Results

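Joints formed at a zinc-finger nuclease (ZFN) break at the Eb locus were compared between Lig4-/- mouse pro-B cells and the same clone with Lig4 added back. The members were chosen by sample title and by break: the 3 libraries of Lig4-/- clone D and the 3 libraries of Lig4-/- +Lig4 clone D, 6 of the 116 samples of the series. Both groups are pro-B cells (immature cells of the B lineage) that the v-Abl oncogene keeps growing in culture, and both carry the Emu-Bcl2 transgene, a survival gene under an immunoglobulin heavy chain enhancer. STI-571, an inhibitor of the Abl kinase, was given at 3 µM for 96 h to hold the cells in G1, and in both the ZFN was induced with doxycycline at 2 µg/ml. Each genotype is 1 clone, how Lig4 was put back is not stated in the labels, and nothing says that the 3 libraries of a group came from separate cultures, so the spread between libraries may be technical. The libraries hold genomic DNA, so the genotypes rest on the labels.

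Ligase IV is the enzyme that seals DNA ends in classical non-homologous end joining, the main route by which G1 cells close double-strand breaks. Ends that are not sealed this way can be trimmed and joined by alternative end joining, which often pairs short stretches of identical bases (microhomology) and loses the sequence between them. A ZFN cuts with paired FokI nuclease domains and leaves short single-stranded 5′ overhangs, which can be filled in by a polymerase, paired with each other, or removed before ligation.

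Each read ran from a fixed primer site (the bait) on the plus strand of chromosome 6 through the joint into the sequence it was joined to (the prey). Most bait alignments in Lig4-/- +Lig4 ended at position 41554976 (the bait edge) and the most frequent prey start was 41554981 (the prey edge), which leaves 4 bases between them. The uncut sequence, assembled from the reads because no genome was used, is shown because every joint is read against it. It covers chr6:41554927-41555046 (mm10, plus strand, 120 bases), and the capitals mark the 4 bases between both edges.
break site: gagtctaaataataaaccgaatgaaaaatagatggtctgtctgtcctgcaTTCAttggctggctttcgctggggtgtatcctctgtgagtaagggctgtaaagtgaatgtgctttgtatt
At each of these positions at least 98.9% of the reads held the base shown. Bases that continued a flank across the bait edge were listed as inserted between bait and prey. With Lig4 this held for 1 T, equal to the next bait base, in 173, 184 and 158 junctions starting at the prey edge. It also held for 1 A, equal to the base at the bait edge, in 676, 532 and 589 junctions starting at the next base. Before the prey edge an A was never listed as inserted (0, 0 and 0). Listed alignments thus mostly stopped at the bait edge even where the read matched further. Read ends alone do not give the position of the cut. The 4 bases are called the overhang only as the stretch between the edges. In the RefSeq annotation of the same build (GRCm38.p6) the site lies inside the entry of the Tcrb locus (40891296 to 41558371), 6.8 kb after the end of Trbc2, a constant region of the T cell receptor beta chain, and 2.72 kb before Trbv31, a variable segment. No other gene entry covered it, so it was neither exonic nor intronic in any single gene. The T cell receptor beta enhancer, known as Eb, lies in this stretch.

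Each library was normalised by the authors to 600000 raw reads. Lig4-/- +Lig4 libraries held 9709, 9102 and 8865 junctions (1 per read) in replicates 1 to 3, and Lig4-/- libraries held 339, 660 and 665. The smallest share that 3 junctions could show was 0.0309% to 0.0338% with Lig4 and 0.451% to 0.885% without it, counting error only, since several reads can stem from 1 molecule. Distinct joints made up 24.5% to 25.2% of the junctions with Lig4 and 33.2% to 40.1% without. All 6 libraries came from 1 flow cell. No read name occurred in more than 1 library. Of the distinct fragments of each Lig4-/- library, 21.1% to 24.2% also occurred in the 3 Lig4-/- +Lig4 libraries pooled. Pairs of Lig4-/- libraries shared 9.38% to 11.05%. These shares are not comparable, since a Lig4-/- +Lig4 library held 6203 to 6766 distinct fragments and a Lig4-/- library 288 to 565. The part of the fragments shared with Lig4-/- +Lig4 libraries in the Lig4-/- values below, such as insertions and bait ends at the edge, was not tested.

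Adding back Lig4 was accompanied by more joints, by joints closer to the cut, and by a change from microhomology to inserted bases. The groups did not overlap in 14 of 15 measures. With 3 libraries against 3 the smallest p of a two-sided exact permutation test is 0.1, so no measure could reach 0.05. These 14 measures each had that p (Benjamini-Hochberg adjusted over the 15, 0.107). In the remaining measure, the share of prey far away on chromosome 6, the groups overlapped. The recovered junctions came to 1618, 1517 and 1477.5 per 100000 raw reads with Lig4, and to 56.5, 110 and 111 without it. Every library with Lig4 lay above every library without it, and the group means differed by 4.12 on the log2 scale.

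**Figure D1:**
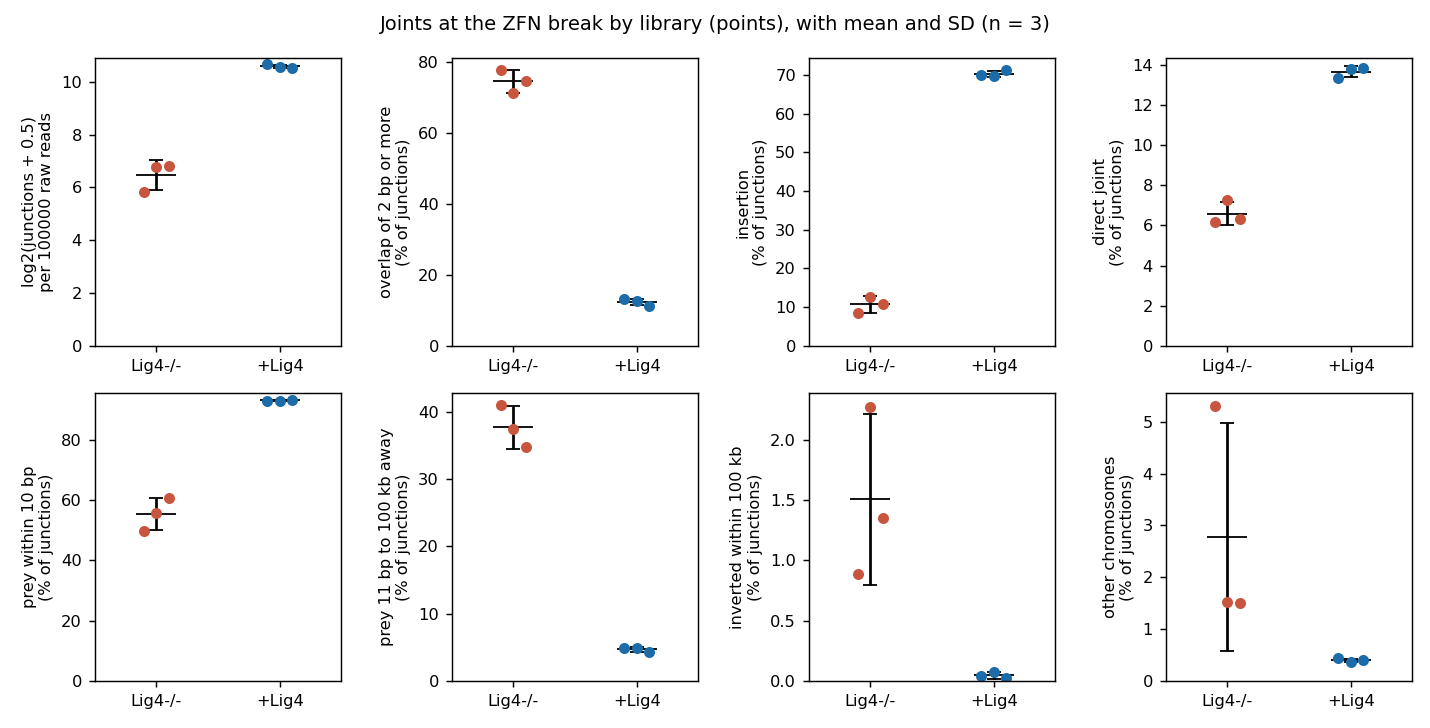
Each panel plots one measure for the 3 Lig4-/- and 3 Lig4-/- +Lig4 libraries (points) with the mean and SD; the y axis gives log2 junctions per 100000 raw reads in the first panel and percent of junctions in the others. The groups do not overlap in any of the 8 panels. In Lig4-/- libraries the SD is 5.38 percentage points for prey within 10 bp and 2.19 for other chromosomes, where the mean is only 2.78%.

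The ends themselves were examined first. The bait kept all of its bases up to the edge in 65.4%, 64.9% and 66.3% of junctions with Lig4, and in 8.55%, 10.3% and 8.12% without it. The groups did not overlap, and the difference of the means was 56.5 percentage points. The edge was picked as the most frequent bait end of Lig4-/- +Lig4 libraries, so this is not a test of it. Without Lig4, bait ends were spread over several positions: 12.1% ± 0.506 (SD, n = 3) ended 2 bp before the edge, 9.86% ± 3.0 ended 3 bp before it, 12.2% ± 3.29 ended 7 bp before it and 9.05% ± 1.78 ended 11 bp before it. With Lig4 the same positions held 4.79% ± 0.695, 3.59% ± 0.167, 1.79% ± 0.0901 and 0.762% ± 0.0466. The median bait loss was 0 bp in all 3 libraries with Lig4 and 5, 6 and 7 bp without it. These losses are counted from the bait edge of the Lig4-/- +Lig4 libraries. The most frequent bait end of Lig4-/- libraries lay 7 bp upstream, and from there no median loss remains in either group.

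Prey starts with Lig4 were listed mainly at the 2 ends of the overhang. The first base after the bait edge, where the whole overhang is kept on the prey side, was the prey start in 26.8%, 21.97% and 24.2% of junctions. The prey edge, where none of it is kept, was the start in 24.3%, 28.3% and 27.2%. The 3 positions between them held 3.99% ± 0.108, 10.2% ± 0.393 and 5.40% ± 0.153 (n = 3). The base at the bait edge was listed as the start in 0.0412%, 0.022% and 0.0226%. Yet 676, 532 and 589 junctions with a start at the next base carried an inserted A equal to it. The peak at the first base after the bait edge thus includes joints whose match runs further back. Without Lig4 the first base after the bait edge was the start in 2.65%, 2.12% and 1.20% of junctions, and the prey edge in 1.18%, 1.21% and 1.20%. Neither position overlapped between the groups, but both edges were placed by the Lig4-/- +Lig4 libraries, so this is not a test of them. The most frequent starts without Lig4 lay deeper, at the base 9 bp after the bait edge (14.7%, 13.9% and 17.0%) and at the base 6 bp after it (9.73%, 15.9% and 16.7%). At the first of these the libraries with Lig4 held 2.46%, 1.92% and 2.13%.

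**Figure D2:**
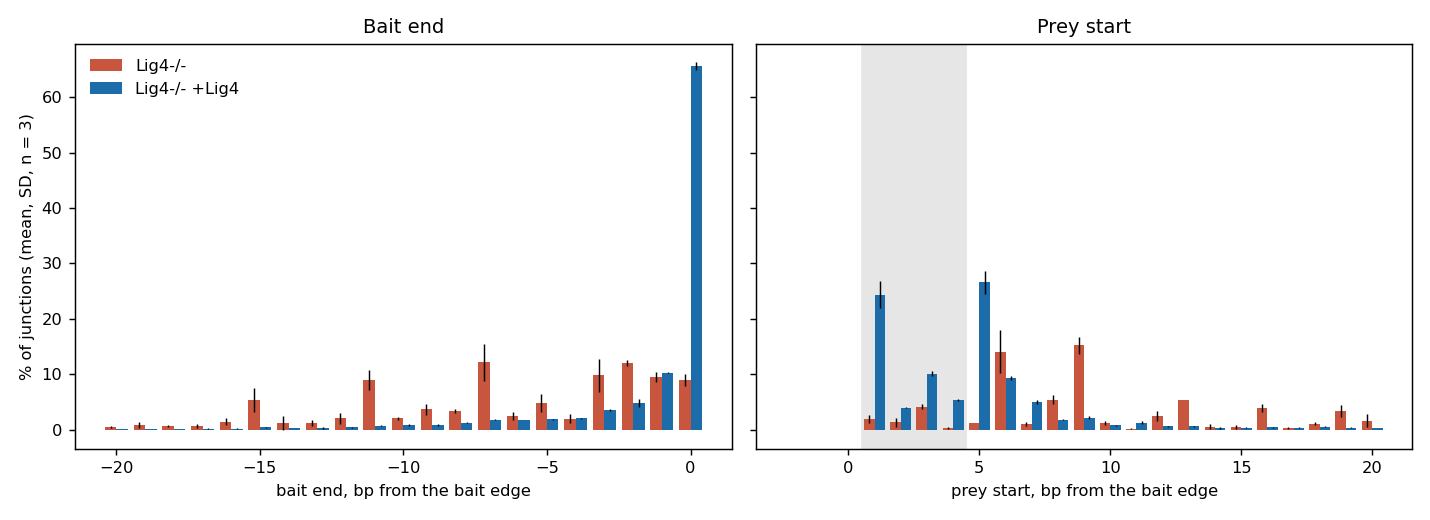
The left panel plots the position of the bait end and the right panel that of the prey start, both in bp from the bait edge, as percent of junctions (bars, mean of 3 libraries; lines, SD); the grey band marks the 4 bases between the edges. With Lig4 the bait end peaks at the edge (65.5%) and the prey start peaks at both sides of the band (24.4% and 26.6%), whereas without Lig4 both are spread, with prey peaks at 6 and 9 bp. Listed alignments mostly stop at the bait edge even where the read matches further.

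Gain and loss of bases at the overhang were read from the net change of length, which does not depend on which side the aligner gave a shared base to. A net gain also counts bases that match no flank, so it is not a measure of fill-in: all 4 overhang bases began the insertion after an intact bait edge in 3.11% ± 0.493 (n = 3) of junctions with Lig4. Among joints within 10 bp of the prey edge, a net gain of 1 to 5 bp was seen in 31.1%, 26.3% and 29.4% with Lig4 and in 2.37%, 1.90% and 0.744% without it. A net loss of 1 to 5 bp was seen in 44.0%, 47.8% and 46.3% with Lig4 and in 11.2%, 13.6% and 11.2% without it. Both classes were more frequent in every library with Lig4, and the means differed by 27.3 and 34.0 percentage points. When each distinct joint was counted once, the difference in losses was 11.9 percentage points. Of all junctions, 73.1%, 72.2% and 74.0% changed length by at most 5 bp with Lig4, against 7.08%, 10.2% and 7.82% without.

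With Lig4 the most frequent single net changes were a gain of 1 bp (14.4% ± 1.15, n = 3), a loss of 4 bp (11.7% ± 0.324) and a loss of 2 bp (9.45% ± 0.397). Without Lig4 the loss of 4 bp was the only one of these above 1% (4.15% ± 0.638). Losses of 11 to 50 bp made up 56.6%, 52.6% and 56.5% of junctions without Lig4 and 11.1%, 11.5% and 10.6% with it. Among joints on the same side within 100 kb, the median net loss was 22, 22 and 18 bp without Lig4 and 2, 3 and 2 bp with it. The uncut sequence itself was listed 0 times in each of the 6 libraries, so exact restoration of the site is not counted here.

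**Figure D3:**
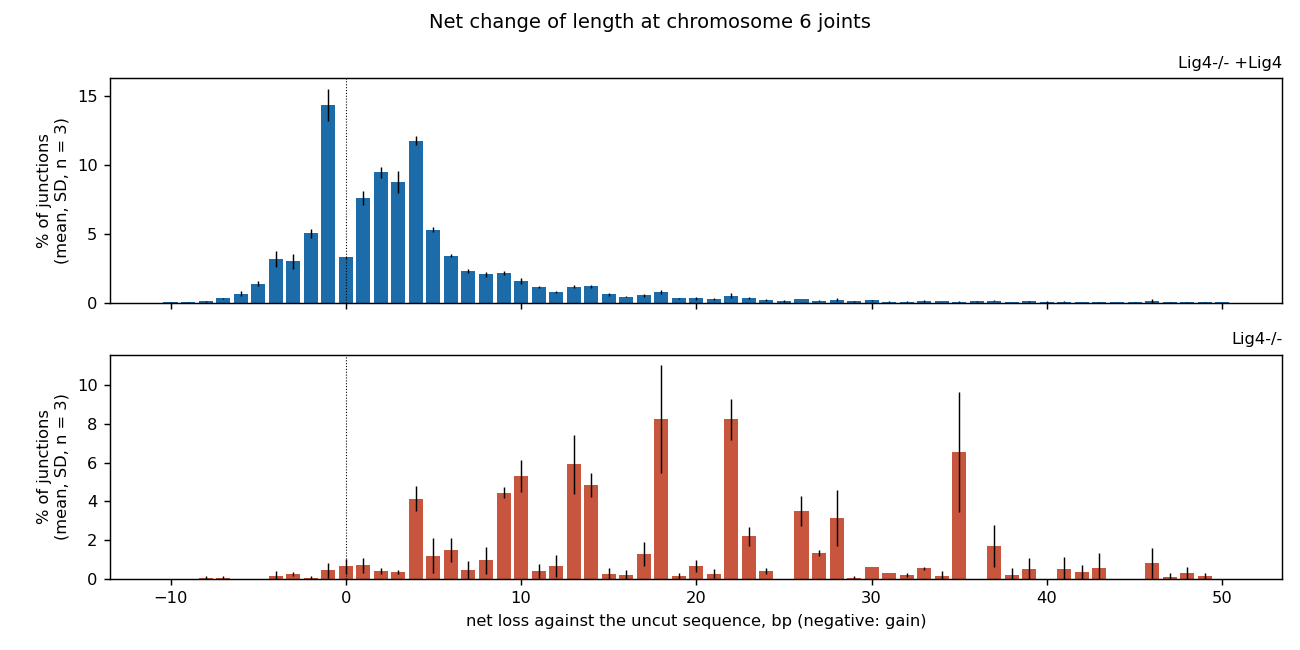
Net loss of bases at chromosome 6 joints in bp (x axis, negative for a gain) against percent of junctions (y axis, mean and SD of 3 libraries), with Lig4 above and without it below. The upper panel is densest from a gain of 1 bp to a loss of 5 bp; the lower panel has separate peaks, among them losses of 13, 18, 22 and 35 bp.

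The joints that carried these changes with Lig4 are shown with the bait edge and prey start unchanged and the inserted bases in capitals, because they show which overhang bases each side kept. The first 4 keep the whole overhang on the prey side and the last 2 keep none of it there.
plus A: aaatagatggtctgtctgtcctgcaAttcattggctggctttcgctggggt
plus T: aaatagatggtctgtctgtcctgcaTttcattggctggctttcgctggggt
plus G: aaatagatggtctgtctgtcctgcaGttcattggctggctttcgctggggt
plus TTCA: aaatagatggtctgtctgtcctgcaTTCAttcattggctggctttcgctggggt
prey edge plus T: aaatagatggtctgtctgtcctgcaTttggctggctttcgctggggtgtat
prey edge plus GG: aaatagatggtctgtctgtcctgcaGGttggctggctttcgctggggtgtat
The joint with 1 inserted A was the most frequent of these, with 676, 532 and 589 junctions (6.48% ± 0.576 of all, n = 3) with Lig4 and 0, 0 and 0 without. That A equals the last base before the bait edge, so the joint repeats 1 bp of the uncut sequence. Of the joints with 1 inserted base at this place, A made up 59.6%, 59.98% and 60.3% with Lig4, T 18.6%, 21.1% and 20.7%, G 17.2%, 15.7% and 15.3%, and C 4.67%, 3.27% and 3.79%. The inserted T equals the first overhang base. The joint that repeats the whole overhang (TTCA and again TTCA), as complete fill-in of both ends would give, had 185, 119 and 135 junctions with Lig4, which is 1.91%, 1.31% and 1.52%, and 0, 1 and 0 without. Repeats of 2 or 3 overhang bases were rarer, with 0.147% ± 0.024 and 0.173% ± 0.0456 of junctions with Lig4. At the prey edge, 1 inserted T left 1 overhang base in place and was found in 1.78%, 2.02% and 1.78% of junctions with Lig4, and in 0 of the junctions of each library without it. The insertion of GG at the same place matched neither flank and was found in 1.42%, 1.47% and 1.31% with Lig4 and in none without. The joints shown were picked by their counts in Lig4-/- +Lig4 libraries, so their absence or rarity without Lig4 is not a test of them.

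Counted by length only, 5 joint structures led the Lig4-/- +Lig4 libraries. They were picked by their share there, so setting them beside Lig4-/- libraries is not a test of them. A single inserted base with the whole overhang on the prey side came first at 11.7%, 9.75% and 11.02%, against 0.885%, 0.152% and 0.150% without Lig4. The joint that lost exactly the 4 overhang bases came second at 7.61%, 7.87% and 7.29%, against 3.24%, 3.33% and 4.36% without. The other three had 2, 3 and 1 inserted bases at the prey edge, at 4.60% ± 0.376, 3.35% ± 0.317 and 3.30% ± 0.394 (n = 3), against 0.1% ± 0.174, 0% and 0% without Lig4. The loss of exactly 4 bases is thus the one leading structure of Lig4-/- +Lig4 libraries that exceeded 3% in every Lig4-/- library as well. It is shown because its 2 bp of overlap (capitals) arise where the overhang ends in the same bases as the bait, so that it reads the same as a blunt joint of both edges.
edge to edge: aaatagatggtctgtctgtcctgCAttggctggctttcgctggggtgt

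Microhomology was measured as the bases of a read that fit both the bait and the prey sequence. Overlaps of at least 2 bp were found in 77.6%, 71.1% and 74.6% of junctions without Lig4 and in 13.1%, 12.5% and 11.3% with it, a difference of 62.1 percentage points with no overlap of the groups. The edge to edge joint made up 58.2%, 63.0% and 64.3% of these overlaps with Lig4, against 4.18%, 4.69% and 5.85% without. Without it, overlaps of at least 2 bp remained in 5.46%, 4.62% and 4.05% of junctions with Lig4 and 74.3%, 67.7% and 70.2% without. The mean overlap over junctions with no insertion was 2.62, 2.44 and 2.41 bp without Lig4 and 1.09, 1.03 and 0.976 bp with it.

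Without Lig4, 2 bp (35.4% ± 1.10 of junctions, n = 3) and 3 bp (26.3% ± 1.29) were the most frequent overlaps, followed by 1 bp (8.29% ± 0.635) and 4 bp (8.21% ± 2.90). Overlaps of 6 bp or more were 4.42%, 2.27% and 2.11%. With Lig4 an overlap of 3 bp was found in 1.43% ± 0.289 of junctions and one of 4 bp in 0.1% ± 0.0397. Direct joints, with neither overlap nor insertion, were 13.3%, 13.8% and 13.9% with Lig4 and 6.19%, 7.27% and 6.32% without. The direction of this last difference depended on counting: when each distinct joint was counted once, the direct share was lower with Lig4 by 3.48 percentage points.

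**Figure D4:**
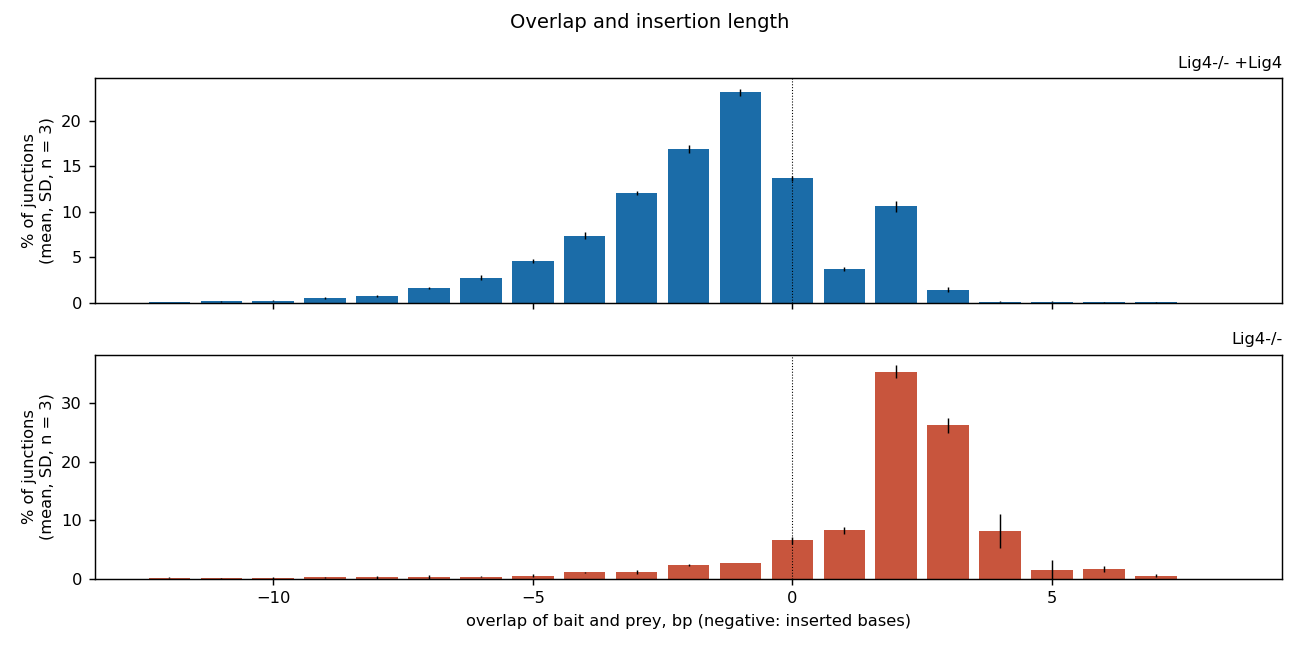
Overlap of bait and prey in bp (x axis; negative values are inserted bases) against percent of junctions (y axis, mean and SD of 3 libraries), with Lig4 above and without it below. Most of the distribution lies at 1 to 5 inserted bases with Lig4 and at overlaps of 2 and 3 bp (35.4% and 26.3%) without it.

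The 5 leading joints of Lig4-/- libraries were all microhomology joints. They are shown, with the shared bases in capitals, because the same short repeats recur at both sides of the cut.
loss of 35: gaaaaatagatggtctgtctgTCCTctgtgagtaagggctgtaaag
loss of 13: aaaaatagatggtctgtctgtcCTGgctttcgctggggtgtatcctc
loss of 22: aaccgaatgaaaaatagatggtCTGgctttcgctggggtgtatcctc
loss of 10: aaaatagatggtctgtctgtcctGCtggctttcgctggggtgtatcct
loss of 18: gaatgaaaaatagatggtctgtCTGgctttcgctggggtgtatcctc
The joint with TCCT, which lost 35 bp, was found in 9.73%, 4.09% and 4.81% of Lig4-/- junctions and in 0.0412%, 0.033% and 0% with Lig4. The losses of 13, 22 and 18 bp joined the same prey CTG, which starts 9 bp after the bait edge, to 3 different CTG copies of the bait, ending 2, 11 and 7 bp before its edge. These 3 joints made up 5.08% ± 1.22, 4.55% ± 0.624 and 4.15% ± 1.62 of Lig4-/- junctions (n = 3), and 0.404% ± 0.166, 0.14% ± 0.0401 and 0.291% ± 0.0666 with Lig4. The GC joint that lost 10 bp was found in 4.42%, 4.85% and 4.21% without Lig4 and in 0.391%, 0.45% and 0.417% with it. None of the 5 overlapped between the groups, but they were picked by their high share in Lig4-/- libraries, so this is not a test of them. Among joints with overlaps of at least 2 bp, CTG was the shared sequence in 25.5% ± 3.89 and TG in 16.5% ± 1.93 without Lig4. With Lig4 the leading sequence was CA, the edge to edge joint and others, at 64.7% ± 2.95, against 5.18% ± 0.798 without.

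Insertions were found in 69.9%, 69.7% and 71.2% of junctions with Lig4 (6791, 6347 and 6315 junctions) and in 8.55%, 12.7% and 10.8% without it (29, 84 and 72 junctions). The groups did not overlap, and the difference was 59.6 percentage points. Part of these inserted bases repeat the flanks, as the fill-in joints above do. Insertions in which every base continued the bait or the prey sequence were 22.8%, 20.0% and 21.7% of insertions with Lig4. Without Lig4 they were 24.1%, 4.76% and 6.94% of the few insertions, so the groups overlapped in this share. When insertions of this kind were left out, insertions remained in 54.0%, 55.8% and 55.8% of junctions with Lig4 and in 6.49%, 12.1% and 10.1% without.

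Inserted stretches were short with Lig4: 32.9% ± 0.216 of insertions had 1 base, 24.04% ± 0.737 had 2 and 17.2% ± 0.273 had 3 (n = 3). In insertions of up to 10 bases, G was the most frequent base with Lig4 (33.6%, 34.5% and 34.0%), followed by C (26.3%, 26.3% and 26.8%). G and C together were 59.9%, 60.8% and 60.8% of the inserted bases with Lig4 and 26.9%, 45.7% and 38.1% without. The groups did not overlap. In insertions with no base equal to the adjoining flank base the G and C share was 72.2%, 71.0% and 72.1% with Lig4 and 29.0%, 46.7% and 40.1% without, the latter over only 62, 210 and 142 bases; this subset leaves out T and A next to the bait edge by construction, which raises it.

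The mean inserted length was 2.78, 2.72 and 2.73 bases with Lig4 and 3.10, 7.14 and 8.24 without. The longer means of Lig4-/- replicates 2 and 3 came with 13 insertions of at least 15 bases in each (15.5% and 18.1% of their insertions), whereas replicate 1 had 0. Libraries with Lig4 had 17, 14 and 7 such insertions among 6791, 6347 and 6315 insertions. When each distinct joint was counted once, or when prey on other chromosomes were left out, the mean lengths of the groups overlapped (exact permutation p = 0.4 in both). Of 10 and 9 distinct long insertions in Lig4-/- replicates 2 and 3, 3 in each held at least 15 consecutive bases found within the 385 bases around the break. With Lig4 this was so for 1 of 17, 4 of 12 and 0 of 7. Of 5 insertions of at least 18 bases that were copied whole from this stretch, 3 matched the opposite strand (2 in Lig4-/- replicate 3 and 1 in Lig4-/- +Lig4 replicate 2) and 2 matched the same strand (18 bases in Lig4-/- +Lig4 replicate 1 and 29 bases in replicate 2, 1 read each). The opposite-strand copies are shown first and the longer same-strand copy last, with the inserted bases in capitals, because they show which strand each insertion matched.
Lig4-/- copy of the prey side: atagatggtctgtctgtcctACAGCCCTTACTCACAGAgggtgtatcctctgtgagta
Lig4-/- copy of the bait side: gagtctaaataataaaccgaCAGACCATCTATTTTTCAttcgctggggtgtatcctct
+Lig4 copy of the bait side: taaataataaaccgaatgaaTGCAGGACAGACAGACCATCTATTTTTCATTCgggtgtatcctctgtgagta
+Lig4 same-strand copy: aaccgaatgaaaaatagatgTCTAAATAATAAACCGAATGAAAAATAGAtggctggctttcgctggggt
In the first 3 joints the insertion is the reverse complement of local sequence: chr6:41555008-41555025 and chr6:41554948-41554965 (18 bases each, 2 reads each) without Lig4, and chr6:41554945-41554976 (32 bases, 3 reads) with Lig4, which ends exactly at the bait edge. The same-strand copy matches chr6:41554930-41554958. Repeated reads of 1 such joint can be copies of 1 molecule.

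Deletions that reached 11 bp to 100 kb into the prey side made up 41.0%, 37.4% and 34.7% of junctions without Lig4 and 4.94%, 4.91% and 4.26% with it, a difference of 33.0 percentage points with no overlap. In joints on the same side within 100 kb, the prey start lay at a median of 12, 9.5 and 8 bp past the first base after the bait edge without Lig4 and at 4, 4 and 4 bp with it, the prey edge itself. The upper tail differed more: the 90th percentile was 679, 446 and 192 bp without Lig4 and 8 bp in each library with it. The furthest prey of each Lig4-/- library lay 4291 bp away, the same position in all 3, and those with Lig4 at 2576, 4437 and 3635 bp. Net losses over 100 bp were 15.6%, 14.3% and 12.8% of these joints without Lig4 and 0.4%, 0.393% and 0.277% with it.

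The bait side could show losses only up to the primer region, and its longest loss was 37 to 40 bp in all 6 libraries. Losses of over 10 bp on that side were 27.4% ± 1.06 of junctions without Lig4 and 4.44% ± 0.294 with it (n = 3). Within the deletion joints, overlaps of at least 2 bp made up 85.6%, 76.5% and 79.2% without Lig4 and 29.0%, 22.4% and 16.9% with it. In joints within 10 bp of the prey edge these shares were 73.4%, 69.8% and 73.2% without Lig4 and 11.9%, 11.8% and 10.8% with it. The difference in microhomology was thus present among joints with a prey start near the prey edge and among those with one further away. Joints were not split by the number of bases lost.

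Inverted joints within 100 kb of the break were few. They numbered 3, 15 and 9 without Lig4 and 4, 7 and 2 with it, which is 0.885%, 2.27% and 1.35% of junctions against 0.0412%, 0.0769% and 0.0226%. The shares did not overlap, although the counts did, since the libraries with Lig4 were much larger. When each distinct joint was counted once, the difference in shares moved from -1.46 to -3.84 percentage points. Of the inverted joints, 1, 8 and 7 without Lig4 and 2, 3 and 1 with it had a prey within 1 kb of the break. Prey upstream of the break in the same orientation as the bait numbered 3, 9 and 4 without Lig4 and 5, 3 and 3 with it.

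Prey on chromosome 6 beyond 100 kb was the one class whose share overlapped between the groups when every read was counted: 1.58%, 1.65% and 1.86% with Lig4 and 2.06%, 1.67% and 1.20% without (difference 0.0502 percentage points, exact permutation p = 1). This depended on counting: when each distinct joint was counted once, the share was higher with Lig4 by 2.50 percentage points (exact permutation p = 0.1, the smallest possible). Most of these prey lay in the immunoglobulin kappa locus, the Igk entry at 67555636 to 70726754, whose nearer end is 26000660 bp from the break and whose V and J segments the RAG recombinase cuts and joins in developing B cells. It took 136 of 153, 130 of 150 and 150 of 165 far junctions with Lig4, and 5 of 7, 7 of 11 and 7 of 8 without. Within Igk, 105, 106 and 128 junctions with Lig4 lay within 50 bp of an annotated edge of a V or J segment, of which 29, 26 and 31 were at a J segment. Without Lig4 these were 3, 2 and 6 junctions, of which 1, 0 and 2 were at a J segment.

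The Igk segment with the most joints with Lig4 was Igkj1 (70722562 to 70722599), with 8, 12 and 12 junctions, followed by Igkv1-135 (67609745 to 67610508) with 12, 9 and 7 and Igkv8-30 (70117061 to 70117617) with 10, 9 and 5. These 3 were picked by their counts. Both orientations occurred about equally with Lig4, with 66, 66 and 68 junctions in the plus and 70, 64 and 82 in the minus orientation. In overlaps Igk joints followed the groups as local joints did: overlaps of at least 2 bp were 17.6%, 14.6% and 20.0% with Lig4 and 100%, 57.1% and 57.1% without, the latter over 5, 7 and 7 junctions. Insertions made up 43.4%, 50.8% and 37.3% of Igk joints with Lig4 and 0%, 14.3% and 0% without. The shares of direct Igk joints overlapped between the groups, at 30.1%, 26.2% and 28.7% with Lig4 and 0%, 28.6% and 42.9% without.

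Junctions with other chromosomes numbered 42, 34 and 35 with Lig4 and 18, 10 and 10 without, which is 0.433%, 0.374% and 0.395% against 5.31%, 1.52% and 1.504%. The shares did not overlap, and the difference was -2.38 percentage points, of which Lig4-/- replicate 1 set a large part: without that library it was -1.11. It was -5.59 when each distinct joint was counted once. Overlaps of at least 8 bp were found in 3, 3 and 2 of these junctions without Lig4 and in 1, 2 and 0 with it. Their part in the difference was not tested. No window of 10 kb held more than 2 junctions of a library. This does not show whether libraries share a window, and no recurrent locus is named. Chromosomes 4, 8 and 14, each taken as a whole, had 2 to 3, 1 to 3 and 4 to 5 junctions per library with Lig4, and 0 to 2, 0 and 0 to 2 without.

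The Lig4 add-back at the ZFN break was set beside the same add-back at a Cas9 break at c-Myc on chromosome 15, in clones A1 and C of cells arrested in the same way. The Cas9 libraries had no doxycycline. Clone, locus, nuclease and doxycycline differ together between these experiments and cannot be told apart. In abundance the effect was 4.12 on the log2 scale at the ZFN break and 6.23 (A1) and 7.79 (C) at the Cas9 break. In microhomology share it was -62.1 percentage points at the ZFN break and -45.4 and -55.9 at the Cas9 break, and in insertion share 59.6 against 41.7 and 63.8. Lig4-/- libraries of clone A1 spread widely, with microhomology shares from 23.8% to 70.7%. A second Lig4-/- set of clone A1 was tighter, from 58.9% to 63.8%. In the share of other chromosomes it was -2.38 percentage points at the ZFN break and -34.1 and -27.8 at the Cas9 break. Among Lig4-/- libraries the share of other chromosomes was 1.504% to 5.31% at the ZFN break, 9.73% to 74.4% in A1 and 12.2% to 52.2% in C, with no overlap. These shares count different prey: Igk lies on the chromosome of the ZFN break, so it counts as another chromosome only at the Cas9 break. The part of Igk in the Cas9 shares was not tested. With the second A1 set as control, the microhomology effect differed between the breaks by -5.61 percentage points rather than -16.8, and the effect on other chromosomes by 54.01 rather than 31.8 (exact permutation p = 0.615 and p = 0.1). None of the 8 differences between effects passed a two-sided exact permutation test of labels within each break (lowest p = 0.1, adjusted 0.775). The permuted differences of that test spread as widely as the add-back effects themselves. Both effects have the same sign in each comparison, and with 3 libraries per group its p then cannot fall below 0.1. It could therefore not decide whether the effects differ.

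**Figure D5:**
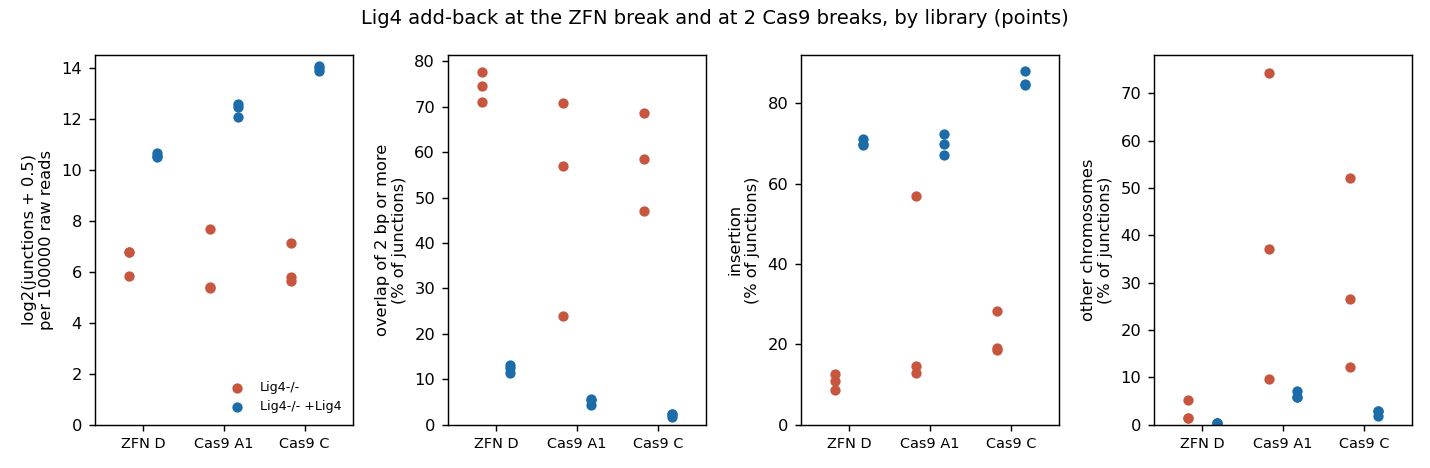
Library values (points) without and with Lig4 at the ZFN break in clone D and at the Cas9 break in clones A1 and C: log2 junctions per 100000 raw reads, then overlaps of 2 bp or more, insertions and other chromosomes in percent of junctions. Each measure has the same order of genotype means at each break, and among the Lig4-/- libraries those at the ZFN break have the lowest shares of other chromosomes (1.504% to 5.31%). Prey in Igk counts as another chromosome only at the Cas9 break.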

How the data were processed

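Junction lists of 6 ZFN libraries and of the Cas9 libraries used for comparison were deposited by the authors with 1 row per read, made with JoinT-seq, per the labels. Bowtie2 and the build mm10 are named in the submitters' processing notes; settings are not given in the sources used here. Positions in the deposited lists are coordinates and not counts, so junctions were tallied per library. Overlap is the bait end minus the prey start on the read, plus 1. The comparisons used exact permutation tests (Python 3.11.15, pandas 2.3.3, numpy 2.4.6, scipy 1.17.1), two-sided, with Benjamini-Hochberg adjustment; the joint reading was tested on simulated data. Named joints were the 5 with the highest mean share in each group. Members, measures and the naming rule were chosen with earlier results of these data known. Replicates were compared by chi-square tests of their joints: Lig4-/- replicates 1 and 2 (p = 0.263) and 2 and 3 (p = 0.0683) did not differ, whereas 1 and 3 did (p = 0.00093). For pairs of Lig4-/- +Lig4 replicates the same chi-square test gave p = 7.02e-11 (1 and 2), 1.87e-07 (1 and 3) and 0.0266 (2 and 3). Since several reads can stem from 1 molecule, these p-values can be too small. The Lig4-/- libraries are also much smaller, so the test does not show which group agrees better. No pair shared a read name. Shared fragments were 9.38%, 11.05% and 9.38% in the Lig4-/- pairs and 16.6% to 17.1% in the Lig4-/- +Lig4 pairs. All libraries were kept.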

Additional observations from a re-analysis of the deposited data

How the results depend on the processing

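Under the other settings 252 values kept their direction and their side of the threshold, and 5 reversed. The measures of the ZFN break cannot pass 0.05. Nor can the comparisons with the Cas9 break, because both add-back effects have the same sign in each of them. The smallest p of that test, 0.005, is reached only with effects of opposite sign. Counting each distinct joint once turned the direct joint share to -3.48 percentage points, and turned the difference of the microhomology effect from the Cas9 break to 0.335 (A1) and 6.31 (C). It also moved the far chromosome 6 share from 0.0502 to 2.50, inverted joints from -1.46 to -3.84, other chromosomes from -2.38 to -5.59, overhang loss from 34.0 to 11.9 and the log10 prey distance from -0.37 to -0.83. The far chromosome 6 share was -0.171 without Lig4-/- replicate 3 and -0.0329 without Lig4-/- +Lig4 replicate 3, and ran from -0.171 to 0.260 over all libraries left out. Leaving out 1 library at a time gave -63.8 to -60.5 for the microhomology share, 58.5 to 60.6 for the insertion share, -3.01 to -1.11 for other chromosomes, -1.77 to -1.07 for inverted joints and 3.80 to 4.28 for log2 abundance. Placing the edges by the Lig4-/- libraries moved the log10 prey distance from -0.37 to -0.02, so it depends on where the break is set. The median bait loss depends on it too. That bait edge lies 7 bp upstream, and the Lig4-/- medians of 5, 6 and 7 bp do not reach past it. Labels paired the replicates by number only; with the replicate number as a block the microhomology difference was -62.1 with a sign-flip p of 0.25, the smallest for 3 pairs, and pairing correlations were 0.355, 0.339 and 0.0413 over 13 measures. Alternatives on distinct fragments, the prey edge and the edge to edge joint were chosen after seeing the data. The small Lig4-/- libraries limit rare classes.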
